A study of Mus musculus with 12 samples.

Results

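The genes described here encode the nuclear subunits of respiratory complexes II to V, together with cytochrome c, in the adult mouse heart. They are the rows of the count table whose symbols name succinate dehydrogenase subunits, ubiquinol-cytochrome c reductase subunits, cytochrome c and its reductase partner Cyc1, cytochrome c oxidase subunits or ATP synthase subunits, with Ndufa4. Of 23457 genes in the table, 50 met this rule: 4 of complex II, 9 of complex III, 1 for cytochrome c, 19 of complex IV and 17 of complex V. Atp5s and Atp5sl carry the ATP synthase prefix but are not subunits of the enzyme, and Cox7a2l is a factor of respiratory supercomplexes; all 3 were kept because the rule takes them.

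Polyadenylated RNA was sequenced in 6 Parkin KO and 6 noninduced heart libraries of adult C57BL/6J mice, 9 to 10 weeks after tamoxifen. Parkin KO mice were floxed and carried MERCreMer, a Cre recombinase that tamoxifen activates. Noninduced mice were floxed and carried no Cre. Per the labels MERCreMer was present in the Parkin KO group alone, so that Parkin loss and MERCreMer cannot be told apart; reads in the libraries labelled noninduced 1 and 3 go against that label, as given below. Parkin is the ubiquitin ligase that tags failing mitochondria for mitophagy, and the series asked how strongly its deletion in the adult heart affects transcripts. RNA came from the ventricular apex, although another label gives the tissue as whole heart. The labels do not say whether each library came from a separate animal, so p-values measure the spread between these libraries.

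The respiratory chain passes electrons from reduced cofactors to oxygen and pumps protons across the inner mitochondrial membrane, and ATP synthase uses the returning protons to make ATP. Complex II also belongs to the tricarboxylic acid cycle and is encoded wholly by nuclear genes, while complexes III to V combine nuclear subunits with a few made from mitochondrial DNA. Cardiac muscle is among the tissues richest in these enzymes, and it uses muscle-specific versions of several small subunits of complex IV.

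Total counts per library ran from 11610507 to 16884516. Park2, the gene for Parkin, was covered by 24 to 45 counts per Parkin KO library (median 33), against 24 to 45 counts per noninduced library (median 32.5). Its log2 fold change was -0.05 ± 0.208 (SE; edgeR quasi-likelihood test, adjusted p = 0.93). The labels do not say which part of the gene was floxed, so reads outside it would still be counted and this value does not check the deletion. Esr1, on which MERCreMer reads can fall, stood at 1552 to 4679 CPM (counts scaled to depth, with TMM-scaled library sizes) in Parkin KO libraries. The libraries labelled noninduced 1 and noninduced 3 held 557 and 962 CPM of Esr1, below every Parkin KO library. The other noninduced libraries held 24.0 to 64.8 CPM. Libraries 1 and 3 thus go against their label of no Cre, and the source of these reads was not tested. Reads on Y-linked genes numbered 495 to 634 in Parkin KO libraries 2, 5 and 6, and 178 in noninduced library 3, against at most 7 in all others. Noninduced libraries 1 and 2 had the highest shares of reads from mitochondrial DNA-encoded genes, 16.0% and 16.7%, against 5.17% to 9.53% in Parkin KO libraries and 6.65% to 10.5% in the other noninduced libraries. Cardiomyocyte markers (12 genes) summed to 110766 to 128847 CPM (median 119605) in Parkin KO and 87307 to 121944 CPM (median 104972) in noninduced libraries. Of the 8 skeletal muscle markers, Myh1, Myh2, Myog and Myod1 had at most 10 reads in any library. So did Ucp1, Adipoq, Lep and Retn among the 8 fat markers. Fabp4 of the fat list had 258 to 352 CPM in Parkin KO and 174 to 284 CPM in noninduced libraries. Cidea of that list had 27.2 to 36.0 CPM in Parkin KO and 21.9 to 34.1 CPM in noninduced libraries. All 8 fat markers summed to 286 to 388 CPM in Parkin KO and 198 to 312 CPM in noninduced libraries.

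In complex IV the highest transcript levels per transcript length were those of muscle versions of its small subunits. The coding sequences of the muscle genes Cox7a1 and Cox8b and of their widely expressed relatives Cox7a2 and Cox8a are shown because the isoform comparisons below rest on telling these pairs apart. They are from GENCODE transcripts on GRCm38, 5′ to 3′ without the stop codon, and capitals mark bases that differ from the partner or have no partner in the alignment of the pair. Cox7a1 spans chr7:30184231-30185964 on the plus strand, and Cox7a2 spans chr9:79755550-79759657 on the minus strand, counting from start codon to last codon with introns between. Cox8b spans chr7:140898991-140900342 and Cox8a chr19:7215392-7217512, both on the minus strand.
Cox7a1: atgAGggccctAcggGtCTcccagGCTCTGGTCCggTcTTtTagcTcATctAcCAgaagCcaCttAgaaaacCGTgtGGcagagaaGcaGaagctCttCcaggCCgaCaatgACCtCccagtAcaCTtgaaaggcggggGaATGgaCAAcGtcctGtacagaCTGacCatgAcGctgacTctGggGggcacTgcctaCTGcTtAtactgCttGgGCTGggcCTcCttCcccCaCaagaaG
Cox7a2: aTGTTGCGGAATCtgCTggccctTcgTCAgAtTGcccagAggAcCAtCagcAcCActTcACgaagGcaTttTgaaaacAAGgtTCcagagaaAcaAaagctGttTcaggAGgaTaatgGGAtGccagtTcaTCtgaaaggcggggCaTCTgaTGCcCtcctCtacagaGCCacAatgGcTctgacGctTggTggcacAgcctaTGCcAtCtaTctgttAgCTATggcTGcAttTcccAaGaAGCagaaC
Cox8b: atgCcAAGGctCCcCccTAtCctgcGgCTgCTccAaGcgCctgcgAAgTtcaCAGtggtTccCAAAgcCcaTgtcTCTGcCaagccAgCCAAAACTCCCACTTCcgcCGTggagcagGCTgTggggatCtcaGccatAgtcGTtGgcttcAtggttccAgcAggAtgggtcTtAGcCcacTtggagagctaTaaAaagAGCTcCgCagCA
Cox8a: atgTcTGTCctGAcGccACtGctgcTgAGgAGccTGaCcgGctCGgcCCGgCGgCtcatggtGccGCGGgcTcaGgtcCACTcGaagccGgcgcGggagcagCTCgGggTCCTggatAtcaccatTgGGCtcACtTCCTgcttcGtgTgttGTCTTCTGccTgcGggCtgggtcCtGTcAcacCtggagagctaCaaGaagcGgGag
Cox7a1 (240 bases) and Cox7a2 (249 bases) were identical at 155 of 230 aligned bases, or 67.4%. Cox8b (210 bases) and Cox8a (207 bases) were identical at 124 of 182 aligned bases, or 68.1%.

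Levels between genes were compared in FPKM, the deposited fragments per kilobase, scaled to sequencing depth. Cox6a2, the muscle version of subunit 6a of cytochrome c oxidase, had the highest mean level of all the subunit genes, 11140 FPKM, and ranked 21st of 23369 genes over the 12 libraries. Cox8b followed at 6112 FPKM and Cox7a1 at 4159 FPKM, at ranks 33 and 49. Among ATP synthase genes the highest were Atp5k (subunit e, 3189 FPKM), Atp5g3 (a gene for the proton-carrying c subunit, 3072 FPKM) and Atp5l (subunit g, 3039 FPKM). These 3 lay within the spread between libraries of each other. Such an order depends on how short transcripts are scaled to length. GENCODE transcripts of Atp5k average 322 bases, and its mean was 337 CPM in Parkin KO libraries. Those of Atp5a1 average 2572 bases, with 3354 CPM in the same libraries but 1297 FPKM over the 12 libraries.

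In complex III the highest level was that of Uqcr11, a small accessory subunit, at 2424 FPKM, and the lowest that of Uqcrc2, a core protein, at 178 FPKM. In complex II Sdhb, the iron-sulfur subunit, led at 871 FPKM and Sdhd, a membrane anchor, was lowest at 272 FPKM. Cycs, cytochrome c itself, stood at 80.2 FPKM. Transcripts of subunits that sit in the same enzyme thus differed widely in FPKM. In all, 18 of the 50 genes were among the 100 highest of the table and 43 exceeded 100 FPKM. Those under 10 FPKM were Atp5s, Cox6b2 and Cox7b2, with Cox8c, which had 0 reads in every library. Cox6b2, Cox7b2 and Cox8c are versions known mainly from testis.

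**Figure D1:**
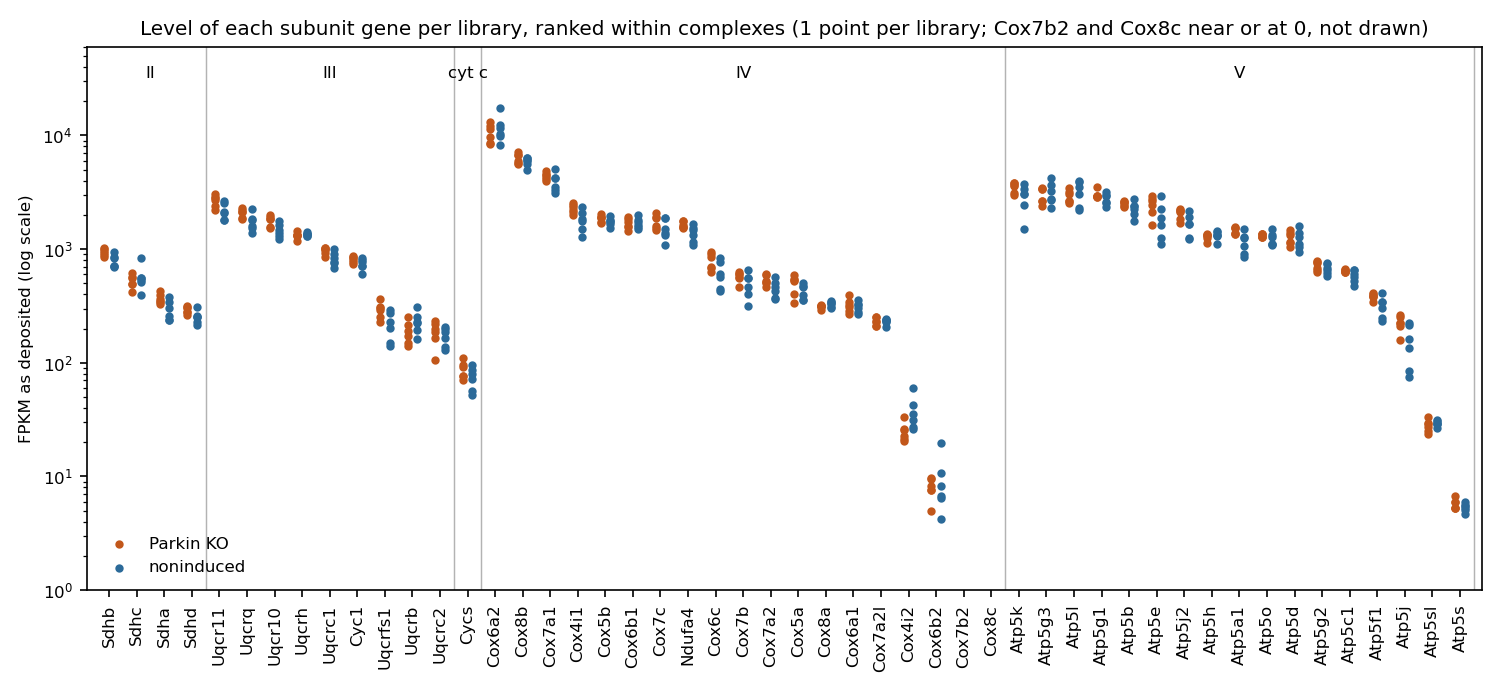
Deposited FPKM (vertical log axis) of each subunit gene, ranked by mean level within complexes II, III, cytochrome c, IV and V, with Parkin KO libraries in orange on the left and noninduced libraries in blue on the right (6 points each). Cox6a2 stands at the top with a mean of 11140 FPKM, and among the genes drawn Cox4i2 and Cox6b2 are lowest in complex IV and Atp5s and Atp5sl lowest in complex V.

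Between Parkin KO and noninduced hearts, no gene of these complexes passed the test, and most fitted differences were small and positive. Counts were fitted over all genes with edgeR's quasi-likelihood test, two-sided, with Benjamini-Hochberg adjustment and a threshold of 0.05; 48 of the 50 genes had enough reads, and Cox7b2 and Cox8c did not. Of these 48, 0 were called, as were 0 of all 13050 genes tested (0%), and the smallest adjusted p among the 48 was 0.417. DESeq2 called 10 genes of the whole table and 0 of the 48, and limma-voom called 0 of the 48. The fitted value was higher in Parkin KO for 34 genes (70.8%) and lower for 14, against 52% higher over all tested genes. The median log2 fold change was 0.125, against 0.010 over all tested genes. Cardiomyocyte markers were higher in 11 of 12 cases with a median of 0.128, close to that of the subunit genes, and their part in it was not tested.

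At an unadjusted p under 0.05, 16 of the 48 genes were higher in Parkin KO, where the share over all tested genes was 5.82%, and 1 was lower, where that share was 5.54%. For 0 of the 48 did the Parkin KO and noninduced libraries separate without overlap, against 0.345% of all tested genes. The approximate 95% intervals reached a median of 0.239 on the log2 scale to either side, against 0.286 over all tested genes. For 21 genes all 6 Parkin KO libraries lay above the noninduced mean, and for 2 genes all 6 lay below it. These counts were not made over all tested genes, so no background share stands beside them. Together the 50 genes held 3.41% to 3.89% of all counts (median 3.80%) in Parkin KO hearts, against 2.92% to 3.92% (median 3.49%) in noninduced hearts. In bulk tissue a difference in the number of cardiomyocytes and a difference in transcript per cell cannot be told apart.

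The count of low p-values depended on the libraries used, among the subunit genes and over the whole table. A fit with fewer libraries also detects less, so a lower count alone does not show a smaller difference. Without noninduced libraries 1 and 2, left out after their mitochondrial DNA-encoded shares were seen, 40 of 48 genes were higher with a median of 0.134, and 1 gene, Uqcr10, had an unadjusted p under 0.05 (2.08% of the 48), against 4.77% of all genes in that fit and 11.4% with all libraries. Without noninduced libraries 1 and 3, which go against their label by Esr1, 41 were higher and 7 had such a p (14.6%, against 7.49% of all genes). The 8 libraries with almost no Y-linked reads were Parkin KO libraries 1, 3 and 4 and noninduced libraries 1, 2, 4, 5 and 6. Among them 34 genes were higher with a median of 0.124, and 4 had such a p (8.33%, against 4.71% of all genes). Without noninduced library 6 the median was 0.054, with 32 genes higher.

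**Figure D2:**
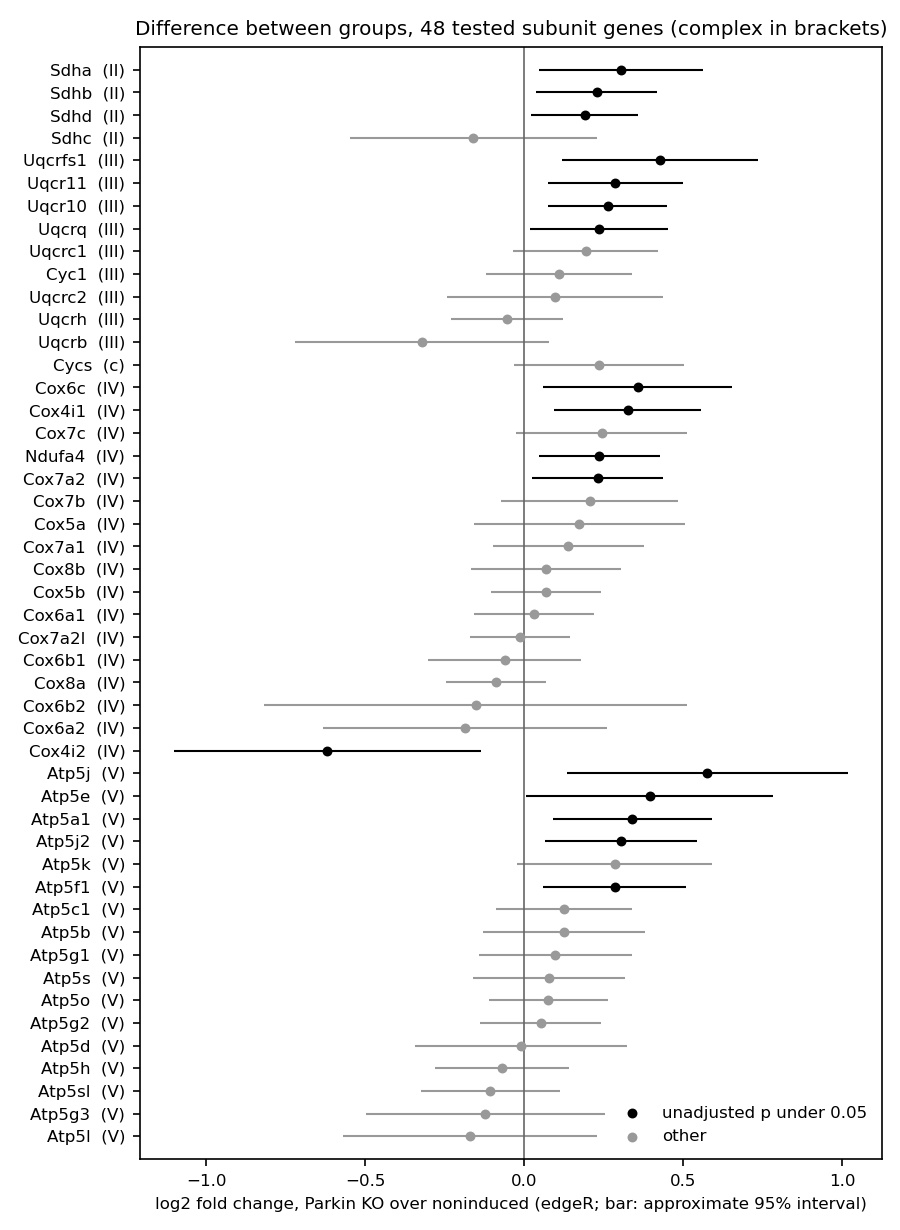
Log2 fold change of Parkin KO over noninduced (horizontal axis) with its approximate 95% interval for the 48 tested genes, sorted within complexes II, III, cytochrome c (c), IV and V. The 17 genes with an unadjusted p under 0.05 are black, 16 of them right of 0 and Cox4i2 left of it, and 0 of the 48 passed after adjustment.

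In complex II, which oxidises succinate to fumarate, 3 of 4 genes were higher in Parkin KO with an unadjusted p under 0.05, against 5.82% of all tested genes. The median log2 fold change was 0.208. With noninduced libraries 1 and 2 left out together, 0 of the 4 had such a p. Without Parkin KO library 4 or 6 none of the 4 had such a p, and 1 did when noninduced library 1, 2 or 6 was left out. Sdha, the flavin-carrying catalytic subunit (chromosome 13 from 74322254 to 74350280 of GRCm38), had 911 to 1150 CPM (median 993) in Parkin KO and 608 to 1006 CPM (median 788) in noninduced libraries. The groups overlapped, with Parkin KO libraries inside the upper part of the noninduced range or above it. It differed by a log2 fold change of 0.31 ± 0.121 (SE, n = 6 each; edgeR adjusted p = 0.424). Sdhb, which carries the iron-sulfur clusters, had 772 to 904 CPM (median 856) in Parkin KO and 603 to 821 CPM (median 722) in noninduced libraries, a log2 difference of 0.23 ± 0.089.

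The membrane anchors of complex II did not share a sign. Sdhd stood at 310 to 350 CPM (median 324) in Parkin KO and 264 to 336 CPM (median 276) in noninduced libraries (log2 fold change 0.19 ± 0.079). Sdhc stood at 422 to 616 CPM (median 529) in Parkin KO and 373 to 965 CPM (median 544) in noninduced libraries (-0.16 ± 0.182). Noninduced library 1 alone gave the 965 CPM, and without it the Sdhc difference was 0.019.

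In complex III, which passes electrons from ubiquinol to cytochrome c, 7 of 9 genes were higher in Parkin KO and the median was 0.193. Of the 9, 4 were higher with an unadjusted p under 0.05 (44.4%, against 5.82% of all tested genes). With noninduced libraries 1 and 2 left out together, 1 of the 9 had such a p (11.1%, against 4.77% of all genes in that fit). Without noninduced library 6 the median was 0.118. Uqcrfs1, the Rieske iron-sulfur protein and part of the catalytic centre (chromosome 13 from 30540308 to 30545362), had 274 to 410 CPM (median 337) in Parkin KO and 180 to 326 CPM (median 243) in noninduced libraries. Its lowest values were those of noninduced libraries 1 and 2, at 194 and 180 CPM. It differed by a log2 fold change of 0.43 ± 0.145 (edgeR adjusted p = 0.417) with all libraries and 0.25 ± 0.125 without that pair.

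The small accessory subunits Uqcr10 and Uqcr11 lay close together. Uqcr10 had 385 to 481 CPM (median 447) in Parkin KO and 329 to 425 CPM (median 358) in noninduced libraries, a log2 fold change of 0.26 ± 0.088. Uqcr11 had 530 to 727 CPM (median 653) in Parkin KO and 468 to 621 CPM (median 508) in noninduced libraries, a log2 fold change of 0.29 ± 0.0998. Both ranges overlapped, and all 6 Parkin KO libraries of each lay above the noninduced mean, as they did for 21 of the 48 genes in all.

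The core proteins, which shape the matrix side of complex III, differed less. Uqcrc1 (chromosome 9 from 108936633 to 108949623) stood at 1277 to 1549 CPM (median 1486) in Parkin KO and 968 to 1476 CPM (median 1288) in noninduced libraries, with a log2 fold change of 0.19 ± 0.107 (edgeR adjusted p = 0.469). The lowest value was that of noninduced library 6, and without it the difference was 0.12 ± 0.090. Uqcrc2 stood at 182 to 394 CPM (median 342) in Parkin KO and 257 to 338 CPM (median 302) in noninduced libraries (0.10 ± 0.159). Parkin KO library 3, at 182 CPM, lay apart from the other Parkin KO libraries, and Uqcrc2 shares 19.7% of its exon bases with Pdzd9 in these libraries, which keep no strand.

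Lower fitted values in complex III were found for Uqcrb, a ubiquinone-binding subunit, and Uqcrh, the hinge protein that docks cytochrome c. Uqcrb had 43.4 to 78.6 CPM (median 57.4) in Parkin KO and 46.6 to 105 CPM (median 69.1) in noninduced libraries (log2 fold change -0.32 ± 0.187). Noninduced libraries 1 and 2 were the highest pair, and without them the difference was -0.08 ± 0.168. Uqcrh had 408 to 506 CPM (median 473) in Parkin KO and 430 to 546 CPM (median 490) in noninduced libraries (-0.05 ± 0.083). Cycs, the mobile carrier between complexes III and IV, had 207 to 317 CPM (median 252) in Parkin KO and 172 to 266 CPM (median 218) in noninduced libraries, a log2 difference of 0.23 ± 0.126 (edgeR adjusted p = 0.459).

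In complex IV, the oxidase that reduces oxygen to water, 11 of 17 tested genes were higher in Parkin KO and the median was 0.068, the lowest of the 4 complexes. That median was 0.023 without noninduced library 6, 0.043 without Parkin KO library 4 and 0.108 without noninduced library 1. Unadjusted p was under 0.05 for 4 genes that were higher and for Cox4i2, which was lower (29.4% of the 17, against 11.4% of all tested genes). With noninduced libraries 1 and 2 left out together, 0 of the 17 had such a p. Cox4i1, the common version of the regulatory subunit 4 (chromosome 8 from 120668222 to 120674207), had 1031 to 1224 CPM (median 1113) in Parkin KO and 717 to 1125 CPM (median 876) in noninduced libraries. Noninduced library 4 reached the Parkin KO range and noninduced library 1 was lowest. The groups differed by a log2 fold change of 0.33 ± 0.108 (edgeR adjusted p = 0.417) with all libraries and 0.22 ± 0.102 without noninduced libraries 1 and 2.

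Cox6c, a small subunit with a single membrane span, had 206 to 284 CPM (median 236) in Parkin KO and 145 to 253 CPM (median 178) in noninduced libraries (log2 fold change 0.36 ± 0.139). Ndufa4, long listed with complex I and now placed in complex IV, had 455 to 521 CPM (median 487) in Parkin KO and 354 to 486 CPM (median 410) in noninduced libraries (0.24 ± 0.089). For both genes the upper noninduced libraries reached into the Parkin KO range.

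Cox4i2, the version of subunit 4 known for its oxygen response and for its use in lung and vessel walls, had 10.8 to 18.0 CPM (median 13.0) in Parkin KO and 13.7 to 36.9 CPM (median 17.7) in noninduced libraries. Noninduced libraries 1 and 2 held 36.9 and 25.7 CPM, above all others, and the remaining noninduced libraries lay inside the Parkin KO range. This gave a log2 fold change of -0.62 ± 0.227 (edgeR adjusted p = 0.424) with all libraries and -0.23 ± 0.150 without that pair. Smooth muscle and pericyte markers (8 genes) summed to 737 to 930 CPM (median 787) in Parkin KO and 777 to 1105 CPM (median 932) in noninduced libraries, with 894 and 1024 CPM in noninduced libraries 1 and 2. Of these 8 markers 7 had lower fitted values in Parkin KO; their part in the Cox4i2 difference was not tested.

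**Figure D3:**
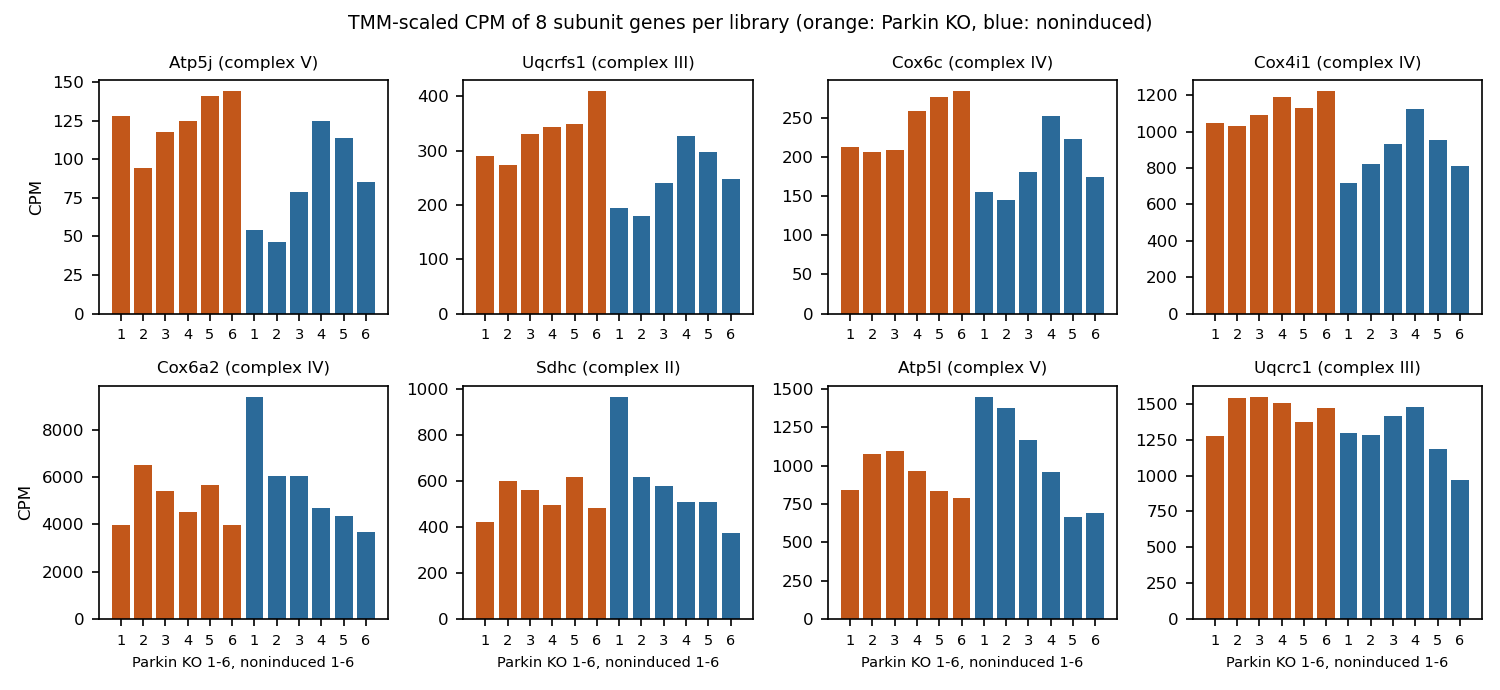
TMM-scaled CPM (vertical axes from 0) of 8 subunit genes in Parkin KO libraries 1 to 6 (orange, left) and noninduced libraries 1 to 6 (blue, right), 1 bar per library. In noninduced libraries 1 and 2 Atp5j, Uqcrfs1 and Cox6c are lowest while Atp5l is highest, Sdhc and Cox6a2 peak in noninduced library 1, and Uqcrc1 is lowest in noninduced library 6.

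In complex V, the ATP synthase, 12 of 17 genes were higher in Parkin KO and the median was 0.098. Of the 17, 5 were higher with an unadjusted p under 0.05 (29.4%, against 5.82% of all tested genes). With noninduced libraries 1 and 2 left out together, 0 of the 17 had such a p. Without noninduced library 6 the median was 0.038, and without noninduced library 5 it was 0.063. Atp5a1, the alpha subunit of the catalytic head, had 3089 to 3593 CPM (median 3417) in Parkin KO and 2168 to 3335 CPM (median 2553) in noninduced libraries. The groups differed by a log2 fold change of 0.34 ± 0.117 (edgeR adjusted p = 0.417), and the groups overlapped at the top of the noninduced range. The genes of the other head subunits (Atp5b, Atp5c1, Atp5d and Atp5e) are given in these counts alone.

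Peripheral and membrane subunits of the synthase gave the widest span. Atp5j, coupling factor 6 of the stalk (chromosome 16 from 84827866 to 84835625), had 94.6 to 144 CPM (median 126) in Parkin KO and 46.4 to 125 CPM (median 82.1) in noninduced libraries. This was the highest fold of all 48 genes, with a log2 value of 0.58 ± 0.208 (edgeR adjusted p = 0.424), and 0.30 ± 0.147 without noninduced libraries 1 and 2, which held 54.1 and 46.4 CPM. Atp5j shares 12.7% of its exon bases with Gabpa. Atp5j2, subunit f, had 507 to 626 CPM (median 600) in Parkin KO and 379 to 596 CPM (median 464) in noninduced libraries (0.30 ± 0.112).

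Atp5k, subunit e of the membrane part, had 298 to 365 CPM (median 346) in Parkin KO and 160 to 347 CPM (median 290) in noninduced libraries (log2 fold change 0.28 ± 0.144). Atp5l, subunit g, had 791 to 1094 CPM (median 902) in Parkin KO and 666 to 1448 CPM (median 1061) in noninduced libraries (-0.17 ± 0.187). Subunits e and g lie side by side in the synthase dimer, yet their fitted differences had opposite signs, and Atp5l became 0.09 without noninduced libraries 1 and 2. Atp5sl was lower in fitted value (-0.11 ± 0.102) and Atp5s higher (0.08 ± 0.112), both at low levels and within the spread between libraries.

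Single noninduced libraries stood apart from the rest. Noninduced library 6 was the lowest of 12 for 23 of the 48 genes (47.9%, against 13.9% of all tested genes) and lay above the 12-library mean for 1 gene. Parkin KO libraries lay above that mean for 21 to 35 genes and noninduced libraries for 1 to 39. In noninduced library 6 cardiomyocyte markers had their lowest sum, 87307 CPM, fibroblast markers (8 genes) their highest, 1771 CPM against 596 to 1336 CPM elsewhere, and atrial markers (6 genes) stood at 4079 CPM. Atrial markers summed to 158 to 1546 CPM in Parkin KO and 121 to 5982 CPM in noninduced libraries, and all 6 had lower fitted values in Parkin KO. Their sum was also high in noninduced libraries 2 and 5, at 3328 and 5982 CPM. It was 159, 121 and 646 CPM in noninduced libraries 1, 3 and 4. The part of tissue makeup in the low values of noninduced library 6 was not tested.

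In noninduced libraries 1 and 2, subunits of the same enzyme lay at opposite ends of the 12 libraries, at shares not far from those of all genes. They were the lowest pair of the 12 for 8 genes, namely Atp5e, Atp5f1, Atp5j, Atp5j2, Atp5k, Cox6c, Cycs and Uqcrfs1 (16.7%, against 11.6% of all tested genes). They were the highest pair for 7, namely Atp5h, Atp5l, Atp5sl, Cox4i2, Sdhc, Uqcrb and Uqcrh (14.6%, against 10.1% of all tested genes). Several of these genes were picked out by this pattern after values were seen, and complexes III, IV and V each appear on both sides. The first principal component of the 48 genes held 52.2% of their variance and placed noninduced libraries 1 and 2 at 0.569 and 0.574, against -0.350 to 0.020 for Parkin KO libraries and -0.221 to 0.136 for the other noninduced libraries. The second held 23.6% and placed noninduced library 6 at 0.790.

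The spread was wider in the noninduced group. The SD of log2 CPM was larger in noninduced than in Parkin KO libraries for 42 of 48 genes (87.5%), against 64.5% of all tested genes. For the subunit genes the median SD was 0.132 in Parkin KO hearts and 0.232 in noninduced hearts. Over all tested genes it came to 0.192 for Parkin KO and 0.232 for noninduced hearts.

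**Figure D4:**
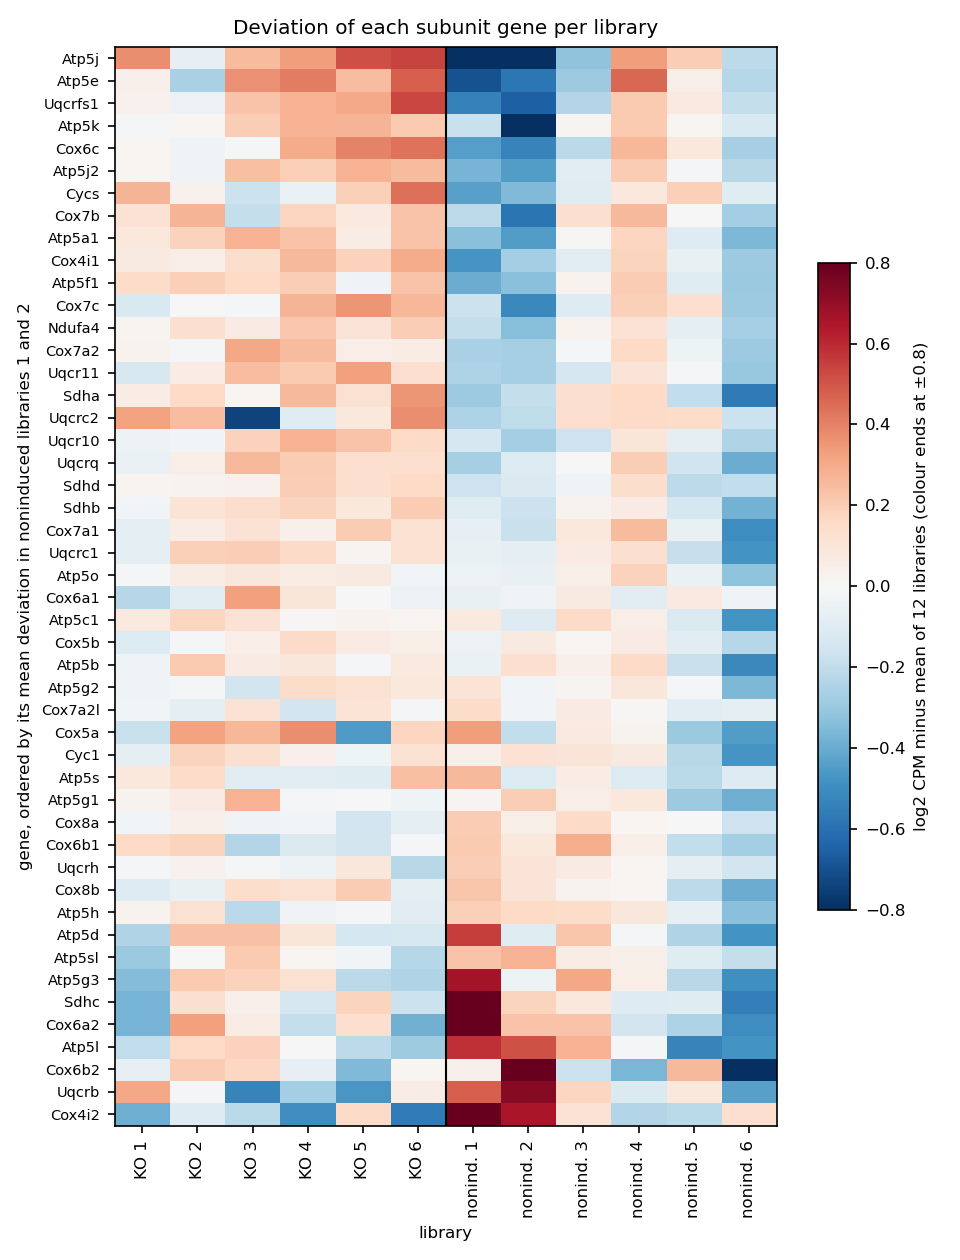
Log2 CPM of each of the 48 tested genes minus its mean over 12 libraries, with Parkin KO libraries left of the line and noninduced libraries right of it, and genes ordered by their mean in noninduced libraries 1 and 2. Noninduced libraries 1 and 2 run from low at the top (Atp5j) to high at the bottom (Cox4i2), and noninduced library 6 is below the mean for all genes but 1.

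Base composition moved with some libraries. Spearman's correlation between a gene's deviation in a library and the GC content of its transcript, over 47 of the 48 genes, was -0.525 in Parkin KO library 1, 0.365 in Parkin KO library 3 and -0.321 in Parkin KO library 6. Over 12926 genes of the table it was -0.394, 0.495 and -0.217 in the same libraries. Genes of a library share its preparation and are not independent, so these values only describe the libraries. Uqcrc2, with 44.4% GC, and Uqcrb, with 42.2% GC, were the only 2 of the 48 genes lowest in Parkin KO library 3 (4.17%, against 11.4% of all tested genes). Cycs, with 40.8% GC, and Cox7b, with 42.0% GC, were not lowest there. With a correction for GC content, 35 of 48 genes were higher and the median was 0.103, against 34 and 0.125 without it.

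Ratios between versions of the same subunit need no scaling between libraries. Of 7 log2 ratios compared by exact two-sided permutation over all splits of 12 libraries into 6 and 6, 0 passed after adjustment over the 7. Cox4i2 over Cox4i1 averaged -6.39 ± 0.334 (SD, n = 6) in Parkin KO hearts, against -5.50 ± 0.761 (SD, n = 6) in noninduced hearts, a log2 difference of -0.89 (exact permutation p = 0.0238, adjusted p = 0.167), with all 6 Parkin KO libraries below the noninduced mean. In FPKM, Cox4i2 made up a median of 1.09% of the pair in Parkin KO and 1.82% in noninduced libraries. Without noninduced library 1 the log2 difference was -0.65. Without noninduced library 4 it was -1.06 and passed (exact permutation, adjusted p = 0.0455). Over the alternatives the adjusted p ran from that value to 0.438. The 0.438 came from sign flips with the replicate number as a block, where the smallest unadjusted p possible is 0.03125. The libraries gave no sign of pairing by number.

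The muscle versions kept most of their pairs in both groups. Cox6a2 was 96.5% to 97.9% of its pair in Parkin KO and 96.2% to 98.5% in noninduced libraries, in FPKM. Its log2 count ratio to Cox6a1 differed by -0.16 (exact permutation p = 0.535, adjusted p = 0.624). Cox7a1 was 88.0% to 90.4% of its pair with Cox7a2 in Parkin KO and 88.0% to 90.6% in noninduced libraries, and the log2 ratio differed by -0.08 (exact permutation p = 0.359, adjusted p = 0.573). In counts, which are not scaled to length, this log2 ratio averaged 1.29 in Parkin KO and 1.37 in noninduced libraries. Cox8b was 94.7% to 96.1% of its pair with Cox8a in Parkin KO and 94.2% to 95.2% in noninduced libraries, and the log2 ratio differed by 0.16 (exact permutation p = 0.0909, adjusted p = 0.318).

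Singly, 5 of the 6 genes of these pairs had approximate 95% intervals that included 0, and Cox7a2 did not, with an unadjusted p under 0.05. The log2 fold change was -0.19 ± 0.209 for Cox6a2 and 0.03 ± 0.089 for Cox6a1, 0.14 ± 0.111 for Cox7a1 and 0.23 ± 0.096 for Cox7a2, and 0.07 ± 0.110 for Cox8b and -0.09 ± 0.074 for Cox8a. Cox6a2 had 3965 to 6497 CPM (median 4968) in Parkin KO and 3668 to 9399 CPM (median 5367) in noninduced libraries, the 9399 CPM in noninduced library 1 alone. Cox6a2 shares 10.3% of its exon bases with Itgad. Cox6b2, a version known from testis, had 1.77 to 2.84 CPM in Parkin KO and 1.15 to 5.97 CPM in noninduced libraries, and its log2 ratio to Cox6b1 differed by 0.04 (exact permutation p = 0.911, adjusted p = 0.911). Cox6b2 differed by -0.15 ± 0.312 and Cox6b1 by -0.06 ± 0.113.

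The c subunit of ATP synthase is made from Atp5g1, Atp5g2 and Atp5g3, which encode the same mature protein behind different import signals. In FPKM, Atp5g1 was a median of 51.4% of the Atp5g1 and Atp5g3 pair in Parkin KO and 48.4% in noninduced libraries, and Atp5g2 was 20.5% of its pair with Atp5g3 in Parkin KO and 18.9% in noninduced libraries. The log2 ratio to Atp5g3 differed by 0.20 for Atp5g1 (exact permutation p = 0.225, adjusted p = 0.525) and by 0.15 for Atp5g2 (exact permutation p = 0.409, adjusted p = 0.573). Singly the 3 genes differed by 0.10 ± 0.113 for Atp5g1, 0.05 ± 0.090 for Atp5g2 and -0.12 ± 0.176 for Atp5g3.

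**Figure D5:**
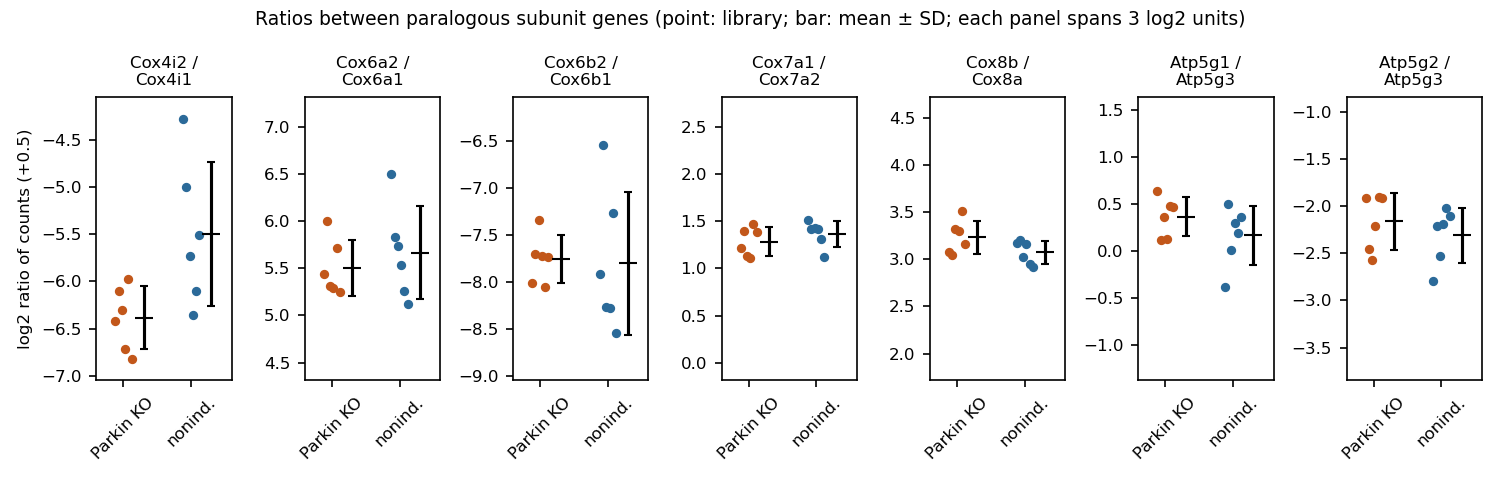
Log2 ratio of counts (0.5 added to each) between paralogous subunit genes, per library, for Parkin KO (orange, left) and noninduced (blue, right), with mean ± SD beside the points and 3 log2 units on each vertical axis. Cox4i2 over Cox4i1 averages -6.39 in Parkin KO and -5.50 in noninduced libraries with overlapping points, and the other 6 ratios differ by 0.20 or less.

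Promoters of these genes are known targets of NRF1, a factor that drives respiratory chain genes, of GABP, of YY1 and of the estrogen-related receptors. RefSeq promoters on GRCm38.p6, from 250 bases before to 50 after the gene start, were at hand for 36 of the 50 genes and for 27025 genes in all, and both strands were searched. The NRF1 core GCATGCGC was in 8 of the 36 (22.2%), against 3.05% of all promoters. The GABP core CCGGAAGT was in 4 (11.1%, against 4.31%), the estrogen-related receptor site TNAAGGTCA in 2 (5.56%, against 1.43%) and the YY1 core AAGATGGC in 2 (5.56%, against 3.19%). Windows are shown to place the match beside the genes described above, on the strand of the gene, 5′ to 3′, with the match in capitals; a match is a description of the letters. The NRF1 matches begin 54 bases before the RefSeq start in Sdhb, 60 in Cycs, 48 in Atp5k and 4 in Uqcr11. That of the YY1 core begins 88 bases before the RefSeq start in Atp5j, and that of the receptor site 52 before it in Atp5g3. RefSeq and GENCODE starts differ for some genes. The windows of Atp5j and Sdhb lie inside the GENCODE spans of these genes, and those of Atp5k and Uqcr11 reach into them.
Sdhb (chr4:140961207-140961235): agcccagtggGCATGCGCcctacgggccg
Cycs (chr6:50566611-50566639): atgctagctcGCATGCGCgcgcacaaacc
Atp5k (chr5:108434429-108434457): tcactgcggcGCATGCGCctttctggctt
Uqcr11 (chr10:80406807-80406835): tcgccttcacGCATGCGCtatacgtctgc
Atp5j (chr16:84835046-84835074): aagtgtaggaAAGATGGCggagtcttagc
Atp5g3 (chr2:73911359-73911388): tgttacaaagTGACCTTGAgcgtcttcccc

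Fitted differences between groups are listed here for genes with and without each motif. Genes with the NRF1 core in this window were higher in Parkin KO in 7 of 8 cases, with a median log2 fold change of 0.210, and tested genes whose promoter lacked it in 19 of 27 cases, with a median of 0.125. With the GABP core 1 of 4 was higher (median -0.062), and without it 25 of 31 (0.173). With the receptor site 1 of 2 was higher (median 0.033), and without it 25 of 33 (0.138). With the YY1 core both Atp5j and Atp5j2 were higher (median 0.440), and without it 24 of 33 (0.125). These small groups overlap, since Uqcr11 holds both the NRF1 and the GABP core, and they were not compared by a test.

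Assembly factors of complexes II to V insert cofactors or chaperone single subunits. Of 36 tested, 24 were higher in Parkin KO, with a median log2 fold change of 0.104, and 0 were called. At an unadjusted p under 0.05, 4 were higher and 1 was lower (13.9%, against 11.4% of all tested genes). Without noninduced libraries 1 and 2, 2.78% had such a p, against 4.77% of all genes in that fit. Pet100, a complex IV assembly factor, had 16.8 to 33.8 CPM (median 29.9) in Parkin KO and 31.1 to 77.8 CPM (median 40.6) in noninduced libraries (-0.76 ± 0.230; edgeR adjusted p = 0.417). AI462493, the symbol for the complex III factor Uqcc3, had 22.5 to 26.4 CPM (median 24.6) in Parkin KO and 13.8 to 26.6 CPM (median 18.2) in noninduced libraries (0.36 ± 0.124). Among the 3 ATP synthase proteins whose symbols lie outside the rule, Usmg5 differed by 0.25 ± 0.129, 2010107E04Rik by 0.37 ± 0.382 and the inhibitor Atpif1 by -0.07 ± 0.140.

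The partners made from mitochondrial DNA had lower fitted values in Parkin KO, while the nuclear genes were mostly higher. All 6 mitochondrial DNA-encoded subunits of complexes III to V were lower, with a median log2 fold change of -0.585 and 0 called. Of the 6, 4 had an unadjusted p under 0.05 (66.7%, against 11.4% of all tested genes). mt-Cytb, the cytochrome b of complex III, had 4128 to 7359 CPM (median 4948) in Parkin KO and 4586 to 16098 CPM (median 7427) in noninduced libraries (-0.78 ± 0.301; edgeR adjusted p = 0.424). mt-Atp8, a membrane subunit of ATP synthase, had 925 to 1582 CPM (median 1019) in Parkin KO and 1090 to 3008 CPM (median 1567) in noninduced libraries (-0.76 ± 0.264). Without noninduced libraries 1 and 2 all 6 were still lower, with a median of -0.144 and 0 at an unadjusted p under 0.05.

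Nuclear-encoded subunits of complex I were higher in Parkin KO in 32 of 35 tested cases, with a median of 0.241 and 0 called. Of the 35, 15 had an unadjusted p under 0.05 (42.9%, against 11.4% of all tested genes). Ndufa6 had a log2 fold change of 0.26 ± 0.083 and Ndufa13 of 0.35 ± 0.112. Without noninduced libraries 1 and 2, 35 of 35 were higher with a median of 0.139. In that fit 2 had an unadjusted p under 0.05 (5.71%, against 4.77% of all genes). Regulators of respiratory chain genes were higher in 7 of 12 cases, with a median of 0.050. Pprc1, a coactivator, differed by -0.33 ± 0.142 and Esrra, an estrogen-related receptor, by 0.18 ± 0.099.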

How the data were processed

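Per the labels, the 12 libraries are non-strand-specific, single-end and of polyadenylated heart RNA. The submitters' processing notes name TopHat2 2.0.10, Bowtie2, HTSeq, Cufflinks 2.1, DESeq and edgeR, and build mm10. The authors deposited whole-number counts per gene symbol and, in another table, FPKM values; their annotation and their handling of multiply mapped reads are not stated in the labels, and pseudogene copies of subunit genes may take some reads. Groups and numbers came from the labels; columns headed wt were taken as the noninduced libraries of the same number.

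Counts were fitted in R 4.3.3 with edgeR 4.0.16 (TMM, filterByExpr, quasi-likelihood F test on the group term), and p-values were adjusted over 13050 genes. Standard errors and 95% intervals were derived from the F statistic and are approximate. DESeq2 1.42.0, limma 3.58.1 and limma on log2(FPKM + 1) were alternatives. The code was tested on simulated counts. Same-numbered libraries of the 2 groups had correlations of their deviations from -0.0991 to 0.166. These values gave no sign of pairing by number but cannot exclude it, and the main fit took libraries as unpaired. Positions, exon overlap and GC content came from GENCODE on GRCm38, which mm10 also names; 49 of the 50 genes had 1 position.

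The genes, lists and tests were chosen with earlier results of these data known. Genes named with values are Cox4i1, Sdha, Uqcrc1, those of the isoform ratios, and in each complex the 3 of smallest p higher, the 2 of smallest p lower and those of highest and lowest FPKM, with the 2 of smallest p in each other list. Depth limits Cox6b2, Atp5s and Cox4i2 most.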

Additional observations from a re-analysis of the deposited data

Results flagged for a closer look

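In 82 groups of 6 libraries (the CPM of each tested named gene and each log2 isoform ratio, in both groups), the distance of an end value to its neighbour was set against Dixon's 95% critical value, which chance passes in about 1 of 20 groups. It was passed in 2. Atp5g1 in Parkin KO library 3 stood at 2188 CPM, above the other Parkin KO libraries, with a gap of 0.709 of the range. Atp5g2 in noninduced library 6 stood at 248 CPM, below the other noninduced libraries, with a gap of 0.693 of the range.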

How the results depend on the processing

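Under every alternative run, 0 of the 48 genes were called, and 32 (without noninduced replicate 6) to 41 were higher in Parkin KO. DESeq2 called 10 genes of the whole table and edgeR called 1 without noninduced libraries 1 and 3. The count of subunit genes at an unadjusted p under 0.05, 17 with all libraries, was 4 without Y-linked libraries, 7 without noninduced libraries 1 and 3 and 1 without noninduced libraries 1 and 2; leaving out 1 library each gave 10 (without noninduced replicate 2) to 20 (without noninduced replicate 4). For all genes the count, 1483, was 628 without Y-linked libraries, 632 without noninduced libraries 1 and 2, and 932 to 2131 leaving out 1 library. The cause was not tested. With the replicate number as a block, 35 genes were higher, 19 had an unadjusted p under 0.05 and 1700 of all genes did; no call changed, and only 1 of 6 Parkin KO libraries correlated best with its own number.

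Of 34 named genes, 23 kept their sign under all alternatives. Without noninduced libraries 1 and 3 the sign turned for Cox6a2 (0.0812), Cox6b1 (0.0401), Atp5g3 (0.119), Sdhc (0.0624) and Atp5l (0.0032), and without noninduced libraries 1 and 2 for Cox6a2 (0.0839), Cox6b2 (0.261), Atp5g3 (0.0164), Sdhc (0.0945), Atp5l (0.0903) and Uqcrc2 (-0.0071). Uqcrc2 was also -0.055 without Y-linked libraries and -0.0101 with a term for them. Cox6b2 was 0.0653 by limma-voom and 0.345 without noninduced libraries 2, 4 and 5, where Atp5s was -0.0487. Leaving out 1 library gave -0.0529 to 0.0749 for Cox6a1, -0.33 to 0.19 for Cox6b2, -0.0045 to 0.11 for Cox8b, -0.23 to 0.011 for Atp5g3, -0.0169 to 0.0737 for Atp5g2 and -0.27 to 0.019 for Sdhc. The Cox6b2 over Cox6b1 ratio was -0.0539 in FPKM and -0.10 to 0.29 leaving out 1 library. For Cox6a2 over Cox6a1, leaving out 1 library gave -0.27 to 0.006. For Cox4i2 over Cox4i1 it gave -1.06 (without noninduced replicate 4, adjusted exact permutation p = 0.0455) to -0.65. The adjusted p of that ratio reached 0.438 over its alternatives, by sign flips with the replicate number as a block.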
